A study of Mus musculus with 2 samples.

Results

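Rtp4, Xaf1, Apol9a and Apol9b are 4 mouse genes that were chosen by their values in this same comparison, as the largest increases among well-expressed genes together with the paralog of one of them. They are 4 of the 25509 genes in the count table of sarcoma cells in which the circular RNA circCsnk1g3 was silenced. All 4 were measured in both libraries and passed the minimum of 10 counts in either library, which left 12941 genes tested. Because the genes were picked on this contrast, their increase is a description and not a test, and it supports nothing beyond itself.

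Interferons are secreted antiviral cytokines. Type I interferon binds the receptor IFNAR1 and IFNAR2, whose kinases JAK1 and TYK2 activate transcription factors including STAT2, which joins IRF9 in ISGF3, the complex that binds the interferon-stimulated response element (ISRE) in the promoters of interferon-stimulated genes. Rtp4 encodes a receptor transporter protein that helps G protein-coupled receptors such as the opioid receptors reach the cell surface, and that also acts against flaviviruses. Xaf1 encodes XIAP-associated factor 1, a zinc finger protein that promotes apoptosis. Apol9a and Apol9b encode cytosolic members of the apolipoprotein L family. All 4 are known as interferon-stimulated genes.

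The cells were C57BL/6 mesenchymal stem cells lacking p53 (p53 KO) and overexpressing Ccne1 (cyclin E1) from a retrovirus, and both groups carried these changes. They had grown as tumors under the skin of a first set of mice and then in the lungs of a second set, from which they were recovered before they received a lentivirus. The shcircCsnk1g3 group expressed a hairpin aimed at the junction that closes the circular RNA, and the shCTR group expressed the control hairpin. There was 1 library per group, so no spread between cultures could be estimated and no test between groups was made.

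Reads of polyadenylated RNA had been summarised by the authors as estimated counts per gene, which summed to 38792143 in shcircCsnk1g3 and 42709996 in shCTR. Levels are given as CPM, the count per 1000000 after scaling by TMM factors, with a 95% exact Poisson interval, and changes as the log2 fold change of shcircCsnk1g3 over shCTR with a 95% Clopper-Pearson interval of the ratio of the 2 counts. Both intervals cover counting error only. Most leukocyte markers were at or near 0: 13 of 16 had at most 3 counts in either library, 11 were at 0 in both, and the summed level of the list was 2.52 CPM in shcircCsnk1g3 and 3.98 CPM in shCTR. Ptprc, the pan-leukocyte marker, had 1 and 0 counts. Most of the sum came from Cd68, a lysosomal protein gene used as a macrophage marker, with 87 and 155 counts (log2 fold change -0.71, interval -1.12 to -0.34). Which cells gave these reads was not tested. Endothelial markers summed to 0.485 and 0.757 CPM, with Cdh5 at 10 and 16 counts. Lung epithelial markers summed to 0.714 and 0.686 CPM. Sftpc and Epcam were at 0 in both, and most of the lung sum came from Ager, with 15 and 16 counts, and Foxj1, with 12 and 7. Mesenchymal markers summed to 11188 and 11778 CPM, although Thy1 had 0 and 1 counts. Csnk1g3, the host gene of the circular RNA, had 2159 counts in shcircCsnk1g3 and 2411 in shCTR over all its transcripts (log2 fold change -0.05, interval -0.14 to 0.03). Poly(A) libraries do not measure the circular RNA, so its silencing was not checked here. The engineered gene Ccne1 had 893 and 963 counts. Trp53 had 3841 and 4334, and gene counts do not show which of its exons were read.

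The ISRE bears on these genes because it is the element through which interferon reaches most of its targets, and so the windows around their start sites are shown. The promoter table from RefSeq, on GRCm38.p6, matched 3 of the 4 genes: Xaf1, Apol9a and Apol9b. Each window is written 5′ to 3′ on the strand of the gene. Each runs from 250 bases before the RefSeq start to 30 bases past the first start in GENCODE M21. Capitals mark matches to the ISRE (GAAA, 2 bases of any kind, GAAA) or to its shorter IRF core (AANNGAAA), searched on both strands of the whole RefSeq window, which reaches 50 bases past its start. Overlapping matches form 1 run of capitals. The windows lie at chr11:72301379-72301658 on the plus strand for Xaf1, chr15:77411106-77411330 on the minus strand for Apol9a, and chr15:77728822-77729068 on the plus strand for Apol9b.
Xaf1: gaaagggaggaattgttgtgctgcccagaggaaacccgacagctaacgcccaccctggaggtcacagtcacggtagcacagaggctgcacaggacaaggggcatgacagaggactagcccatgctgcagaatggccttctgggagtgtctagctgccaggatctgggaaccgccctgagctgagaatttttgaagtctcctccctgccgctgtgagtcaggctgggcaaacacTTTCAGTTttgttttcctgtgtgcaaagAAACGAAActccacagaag
Apol9a: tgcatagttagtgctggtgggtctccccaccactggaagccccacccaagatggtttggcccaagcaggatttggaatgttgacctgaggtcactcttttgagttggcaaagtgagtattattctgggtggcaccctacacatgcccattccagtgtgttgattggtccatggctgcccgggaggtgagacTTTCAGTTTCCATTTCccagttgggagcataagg
Apol9b: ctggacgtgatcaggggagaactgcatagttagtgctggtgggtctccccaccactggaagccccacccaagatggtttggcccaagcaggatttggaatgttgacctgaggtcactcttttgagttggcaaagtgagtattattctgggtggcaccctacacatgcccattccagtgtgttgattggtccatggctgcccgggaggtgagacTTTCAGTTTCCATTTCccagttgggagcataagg

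Apol9a and Apol9b each held 2 overlapping ISRE matches, TTTCAGTTTC and TTTCCATTTC as read on the gene's strand, so the GAAA repeats stand on the opposite strand. Counted from the RefSeq start as 0, the matches in Apol9a lay at -59 to -50 and -53 to -44, and those in Apol9b at -37 to -28 and -31 to -22. Counted from the first GENCODE start they stand at the same place in both genes. There the first match spans that start and the second lies past it, inside the annotated gene. The promoter windows of the pair had 0 differences over the 278 columns that could be aligned. The Xaf1 window had no ISRE match. It held the IRF core TTTCAGTT at -17 to -10 and AAACGAAA at 11 to 18, and TTTCAGTT is also the first part of the run shared by the Apol9 windows. No window held a match to the GAS element (TTCNNNGAA), the gamma interferon activation site. Every IRF core match in the Apol9 windows lies inside an ISRE match.

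These letters are not rare. Of all 32851 promoter windows of the same length in the table, 3.44% held the ISRE, 23.9% the IRF core and 8.30% the GAS element. Among the genes tested other than the 4 that have a window in the table, 346 held an ISRE, and their median log2 fold change was 0.04, with 22 of them (6.36%) at least 2-fold higher in shcircCsnk1g3. The 9243 that have a window without one had a median of 0.00, with 125 (1.35%) at least 2-fold higher. The 346 include 18 of the interferon-stimulated comparators described below, 9 of them at least 2-fold higher. For the IRF core the shares at least 2-fold higher were 2.50% of 2001 genes with a match and 1.28% of 7588 without. For the GAS element they were 1.25% of 803 and 1.56% of 8786. The motifs were chosen after the windows of these genes had been seen, and a match describes the letters in a window and not a bound site.

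Rtp4 had 791 counts in shcircCsnk1g3 and 228 in shCTR, or 20.2 CPM (interval 18.8 to 21.6) and 5.40 CPM (interval 4.72 to 6.14). Its level was 3.74 times as high with the hairpin, a log2 fold change of 1.89 (interval 1.69 to 2.12). As a description of how it was picked, it had rank 1 by log2 fold change among the 9084 genes whose mean level reached 10 CPM, and rank 58 among all 12941 genes tested. It reached that mean only through shcircCsnk1g3, since its level in shCTR was below 10 CPM, and the same holds for Xaf1. The cells are a bulk sample, so a change in the number of cells that express a gene and a change in RNA per cell cannot be told apart, here and for each gene below.

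Rtp4 (ENSMUSG00000033355) lies on the plus strand at chr16:23520291-23614222 on GRCm38 and has 5 transcripts in GENCODE M21, of which the longest coding one measures 1859 bases with a coding part of 750. The gene overlaps Masp1, on the opposite strand, and Gm45338, on the same strand. Masp1, a protease of the lectin complement pathway, had 1731 and 1988 counts (log2 fold change -0.09). Gm45338, which shares part of the Rtp4 transcript sequence, was not analysed here. The library kit keeps strand, but whether counting used it is not given in the sources used here.

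Xaf1 had 877 counts in shcircCsnk1g3 and 282 in shCTR, or 22.4 CPM (interval 20.9 to 23.9) and 6.67 CPM (interval 5.92 to 7.5). The ratio was 3.35 and the log2 fold change 1.74 (interval 1.55 to 1.94), with rank 4 among the 9084 genes and rank 77 among all genes tested. Xaf1 (ENSMUSG00000040483) lies on the plus strand at chr11:72301629-72313733, overlaps no other annotated gene, and has 5 transcripts, the longest coding one of 2597 bases with a coding part of 822. The IRF core after its start, shown above, is therefore in the first bases of the annotated gene.

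Apol9a had 2304 counts in shcircCsnk1g3 and 870 in shCTR, or 58.8 CPM (interval 56.4 to 61.2) and 20.6 CPM (interval 19.2 to 22.0). Its ratio was 2.85 and its log2 fold change 1.51 (interval 1.40 to 1.63). Apol9b had 1618 and 619 counts, or 41.3 CPM (interval 39.3 to 43.3) and 14.7 CPM (interval 13.5 to 15.9), with a ratio of 2.82 and a log2 fold change of 1.49 (interval 1.36 to 1.63). The paralogs had almost the same change. They had ranks 5 and 7 among the 9084 genes, and 116 and 123 among all genes tested.

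**Figure D1:**
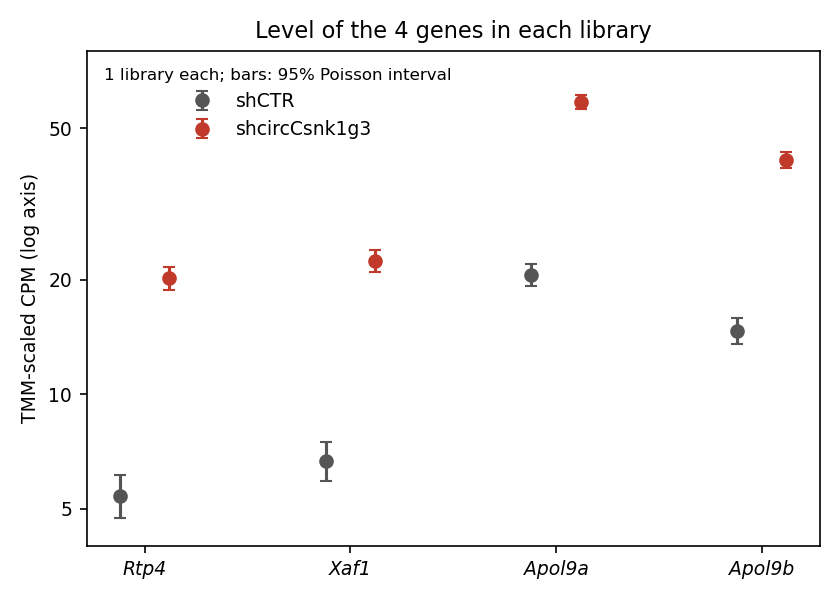
TMM-scaled CPM on a log axis for Rtp4, Xaf1, Apol9a and Apol9b in the single shCTR library (grey) and the single shcircCsnk1g3 library (red), with bars for the 95% Poisson interval of the count. For each gene the shcircCsnk1g3 point lies above the shCTR point and the bars do not overlap, from 20.2 against 5.40 CPM for Rtp4 to 58.8 against 20.6 CPM for Apol9a.

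In both libraries Rtp4 and Xaf1 were the lower pair and Apol9a and Apol9b the higher one. Divided by the length of the longest coding transcript, the level in shcircCsnk1g3 was 38.4 CPM per kb for Apol9a, 26.2 for Apol9b, 10.9 for Rtp4 and 8.61 for Xaf1. In shCTR the levels per kb were 13.5, 9.31, 2.90 and 2.57 in the same order. The order of the Apol9 genes depends on the length used. Divided by its longest transcript of any kind, a retained-intron form, Apol9a would stand at 13.8 and 4.85 CPM per kb, below Apol9b, while the other 3 genes keep their values. The Poisson intervals of Rtp4 and Xaf1 overlapped in shCTR (2.54 to 3.31 against 2.28 to 2.89 CPM per kb) and did not in shcircCsnk1g3 (10.1 to 11.6 against 8.05 to 9.20). The pair with the lower levels had the larger folds. Within a pair the order depends on the measure. Rtp4, with the larger fold, was below Xaf1 in CPM and above it per kb. Apol9a, with the slightly larger fold, was above Apol9b in CPM, and per kb its place depends on the length used. The log2 fold change interval of Rtp4 lay above those of both Apol9 genes, whereas the interval of Xaf1 overlapped all the others. The 4 genes together had 5590 and 1999 counts.

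The Apol9 genes lie 317.9 kb apart on opposite strands of chromosome 15, Apol9a (ENSMUSG00000057346) at chr15:77403789-77411135 on the minus strand and Apol9b (ENSMUSG00000068246) at chr15:77729039-77736382 on the plus strand, and each has 4 transcripts. They are near copies, and reads from the identical stretches cannot be placed by sequence. Their coding sequences are both 933 bases long and differ at 14 positions with no gap, so that 98.5% of positions are identical, and the longest identical run spans 446 bases. Translated, the sequences have 310 residues each, of which 10 differ. Outside the coding part the genes differ more: the whole transcripts have 23 substitutions and 153 gap columns and are 89.2% identical. Within the coding part, bases 490 to 579 hold 7 of the 14 substitutions. The window is printed from GENCODE M21 to show coding bases by which a read could tell the genes apart, with capitals at the bases that differ.
Apol9a: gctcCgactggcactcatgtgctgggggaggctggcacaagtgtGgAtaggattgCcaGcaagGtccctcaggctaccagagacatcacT
Apol9b: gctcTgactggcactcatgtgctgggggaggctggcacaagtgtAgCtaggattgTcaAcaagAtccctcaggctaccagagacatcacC

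The share of each transcript that occurs in no other annotated transcript sets how well a read can be placed. In words of 75 bases, 52.1% of those of Apol9a and 58.4% of those of Apol9b were found in no other gene, and every other word was shared with the paralog. At 100 bases the shares were 58.9% and 65.1%, and at 50 bases 42.5% and 48.6%. Rtp4 had 87.6% of its 75-base words to itself, the rest being shared with Gm45338, and Xaf1 had 99.0%. No word of either Apol9 transcript occurred in a gene outside the pair, including the other Apol genes, at any of these lengths. The length of the reads is not given in the sources used here.

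**Figure D2:**
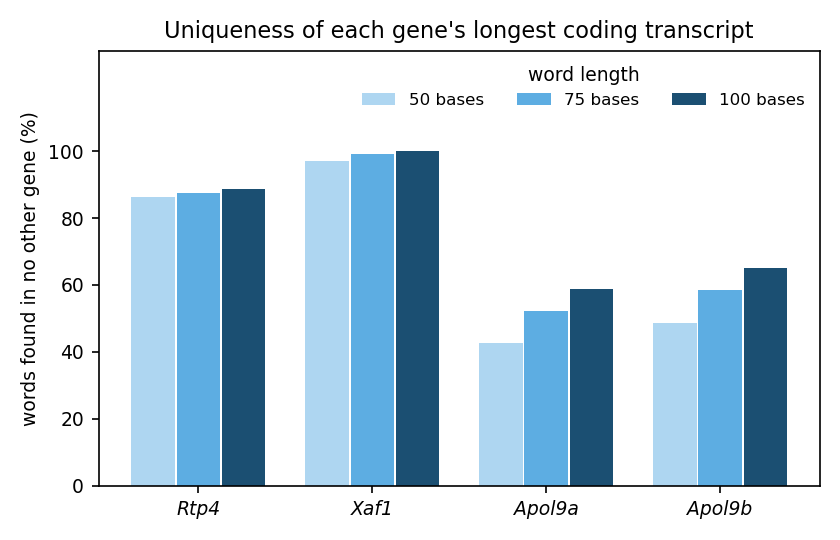
Percent of the words of 50, 75 and 100 bases in the longest coding transcript of each gene that occur in no other annotated gene. Apol9a (42.5%, 52.1% and 58.9%) and Apol9b (48.6%, 58.4% and 65.1%) have fewer words of their own than Rtp4 and Xaf1 at every length.

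RSEM, the program the authors used, divides a read that matches several genes between them. The sum of the pair does not depend on how reads were divided within it. Summed, the pair had 3922 counts in shcircCsnk1g3 and 1489 in shCTR, a ratio of 2.84 and a log2 fold change of 1.503 (interval 1.42 to 1.59). Apol9a took 58.7% of the pair's counts in shcircCsnk1g3 (Clopper-Pearson interval 57.2 to 60.3) and 58.4% in shCTR (interval 55.9 to 60.9). The division was thus alike in both libraries, within intervals that do not cover the error of assigning reads, and the separate value of each paralog is uncertain to the extent that shared reads were divided.

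Against the whole table, a rise of 2-fold or more in shcircCsnk1g3 was found for 275 of 12941 genes (2.13%) and a fall of that size for 330 (2.55%). Scaled to housekeeping genes, the numbers were 354 and 261, so which direction had more genes depends on the scaling. Among those whose mean level reached 10 CPM, 24 (0.264%) were at least 2-fold higher. The 4 genes are in this group, but they were picked on these same values, one of them as a paralog, and Rtp4 and Xaf1 reached the mean only through the library where they are high, so nothing is read from this share. The interval lay above 0 for 26.9% of genes tested and below 0 for 28.2%, so an interval away from 0 is common at this depth and says little by itself. Over all 12941 genes the median change was 0.00.

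The genes ranked around the 4 in the same list were of several kinds. Yam1 (1.84) and Lars2 (1.79) had ranks 2 and 3 and Gm42418 (1.42) rank 10, and none of them was picked. Their annotations overlap or resemble ribosomal RNA sequence, and together they took 0.464% of counts in shcircCsnk1g3 and 0.142% in shCTR. Their part in the results for the 4 genes was not tested.

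Col4a6, a basement membrane collagen chain, stood between the Apol9 genes with 1695 and 644 counts (1.501). Isg15, the ubiquitin-like modifier induced by interferon, came directly after Apol9b with 1029 and 394 counts (1.49), and so lies just outside the 4 by a margin far smaller than its interval (1.32 to 1.66). Itga8, an integrin chain, followed at 1.44, then Tmem200a at 1.42 and Sulf2, a heparan sulfate sulfatase, at 1.36.

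Counting error depends on level, so each gene was also set beside genes of like level. Of the 2839 genes within 2-fold of the mean level of Rtp4, the central 90% had log2 fold changes from -0.50 to 0.47, and 20 (0.704%) were at least 2-fold higher. Of the 4555 genes around Apol9a, the same range was -0.39 to 0.34 and 8 (0.176%) were at least 2-fold higher. Around Xaf1 14 of 3081 genes (0.454%) and around Apol9b 13 of 4266 (0.305%) were at least 2-fold higher. Counting the gene itself, 3 genes were at least as high as Rtp4, 2 as Xaf1, 1 as Apol9a and 4 as Apol9b, which describes the values they were picked on. The genes nearest in change at like level were Gbp3 (421 and 113 counts, 1.99) and Ifi44 (447 and 121, 1.97), both interferon-stimulated, and Gm14419 (1.77) for Rtp4. For Xaf1 they were Rtp4, Anxa8 (490 and 185, 1.502) and Apol9b. For Apol9a they were Col4a6, Apol9b and Lonrf1 (1603 and 690, 1.32), and for Apol9b they were Isg15, Col4a6 and Apol9a. Likeness here is the difference in log2 fold change over a single contrast.

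**Figure D3:**
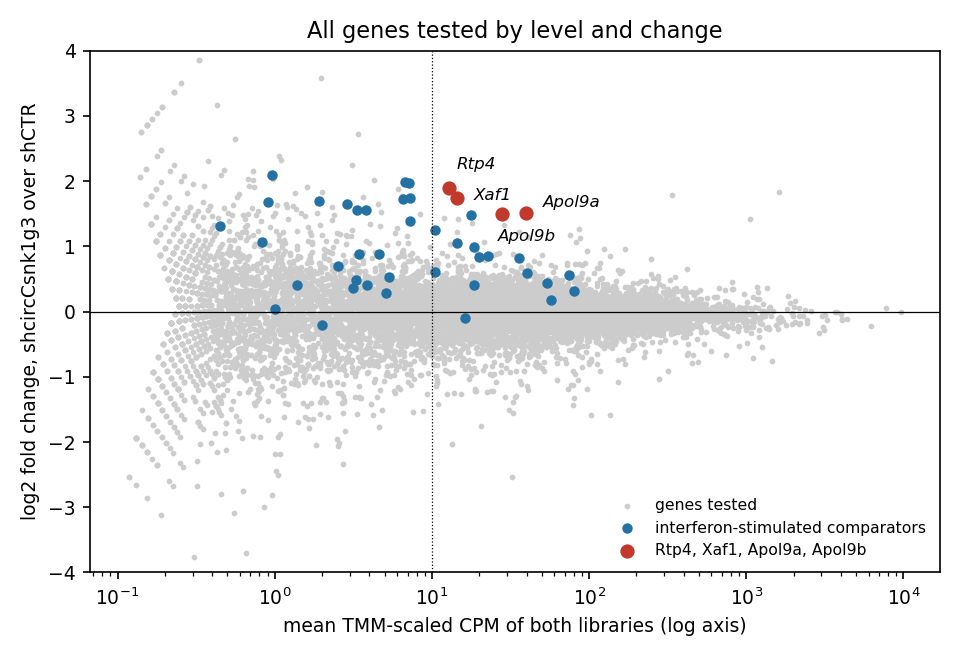
Log2 fold change of shcircCsnk1g3 over shCTR against the mean TMM-scaled CPM of both libraries on a log axis, for all 12941 genes tested (grey), 39 interferon-stimulated comparators (blue) and the 4 genes (red), with a dotted line at 10 CPM. The 4 genes lie between 1.49 and 1.89 above most genes of like level, and 9 genes beyond 4 in either direction are outside the plotted range.

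Relatives of the 4 genes did not all move with them. Of 12 other apolipoprotein L genes, 11 were in the table and 3 were tested. Apol7a, the neighbour of Apol9a, had 509 counts in shcircCsnk1g3 and 390 in shCTR (log2 fold change 0.49, interval 0.30 to 0.69). Apol6 had 183 and 153 (0.36, interval 0.05 to 0.69) and Apold1, a more distant relative expressed in vessels, 141 and 139 (0.13, interval -0.22 to 0.48). These 3 values are all below the intervals of Apol9a and Apol9b. Of the remaining 8, Apol10b had 6 counts in each library and 7 had at most 3. The receptor transporter genes Rtp1, Rtp2 and Rtp3 had at most 2 counts in either library, and so did the opioid receptor genes Oprm1, Oprd1 and Oprk1, the cannabinoid receptor gene Cnr1 and the taste receptor gene Tas2r143. At this depth 3 counts correspond to 0.0765 CPM in shcircCsnk1g3 and 0.0710 CPM in shCTR, so Rtp4 was the single member of its family above that limit. The receptor genes named here were not detectable above it, and other receptors were not listed. Tbk1, a kinase of innate immune signalling that RTP4 can bind, had 1324 and 1369 counts (0.06).

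The genes of XAF1 partners were also counted. The list held the inhibitor of apoptosis proteins, their antagonists, the caspases they restrain and related death genes, and 20 of its 23 genes were tested. Their median log2 fold change was -0.00, with 9 higher and 11 lower, the interval above 0 for 6 and below 0 for 5, none at least 2-fold higher and 1 at least 2-fold lower. These counts are near the shares over all genes tested, which were 26.9% above 0, 28.2% below 0, 2.13% at least 2-fold higher and 2.55% at least 2-fold lower. Xiap, the inhibitor that XAF1 binds, had 4182 and 4060 counts (0.15, interval 0.09 to 0.21). Birc3 (0.28), Trafd1 (0.27), a zinc finger relative of Xaf1, and Birc2 (0.25) were the highest, while Birc5, which encodes survivin and serves cell division, was at -0.23 and Tnfrsf10b, a TRAIL receptor, at -0.38. The gene more than 2-fold lower was Naip2, with 17 and 49 counts (-1.32), and its relative Naip6 had 25 and 53 (-0.92, interval -1.72 to -0.26). The initiator caspase genes Casp8 and Casp9 were at 0.17 and 0.10, and the IAP antagonists Diablo and Htra2 were at -0.04 and -0.17.

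Along the pathway that is known to drive the 4 genes, the ligands were not detectable. All 21 interferon genes of types I, II and III had at most 3 counts in either library, and 19 were at 0 in both. Ifnb1 had 1 count in each library, and Ifnz 0 and 3. A difference in interferon transcripts was therefore not detectable at this depth, and secreted interferon is not measured by these libraries.

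Of 22 receptor, kinase, transcription factor and feedback genes, 20 were tested, with a median log2 fold change of 0.17, the interval above 0 for 10 and below 0 for 5, and 3 at least 2-fold higher, against 26.9%, 28.2% and 2.13% of all genes tested. The receptor chains Ifnar1 and Ifnar2 were at -0.12 and 0.15, and the kinases Jak1 and Tyk2 at -0.10 and 0.16. The ISGF3 subunit genes Irf9 and Stat2 stood higher. Irf9 had 2196 and 1073 counts (1.14) and Stat2 1290 and 756 (0.88), and both are themselves interferon-stimulated genes. Irf7, a transcription factor for interferon genes, had 336 and 147 (1.29), against 0.43 for Irf1 and 0.07 for Irf3. Of the feedback genes, Usp18, which blocks the receptor, had 376 and 108 counts (1.89), equal to Rtp4 to 2 decimals, whereas Socs1, a JAK inhibitor, had 326 and 482 (-0.45).

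The 40 other interferon-stimulated genes taken as comparators were written down with earlier results of these data known, and 39 were in the table and tested. Their median log2 fold change was 0.85, with the interval above 0 for 35 and below 0 for none, and 16 were at least 2-fold higher, against 26.9%, 28.2% and 2.13% of all genes tested. The highest were Ifit3b (62 and 14 counts, 2.10), Gbp3 and Ifi44. The lowest were Psmb8, an immunoproteasome subunit (73 and 91, -0.21), Ifit2 (613 and 705, -0.09) and Slfn5 (40 and 42, 0.04). The comparators spread from no increase to more than 2 on the log2 scale, and the 4 genes stood in the upper part of that range. That place restates the values they were picked on, and nothing is read from it. The change of Rtp4 was exceeded by 3 of the 39 comparators, that of Xaf1 by 4, and those of Apol9a and Apol9b by 10 each. Of the comparators with a promoter window, the 18 with an ISRE match had a median of 1.14 with 9 at least 2-fold higher, and the 12 without one a median of 0.47 with 3. The other comparators had no window. The list was written with earlier results known and the motifs after windows had been seen, and a link between motif and change was not tested.

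**Figure D4:**
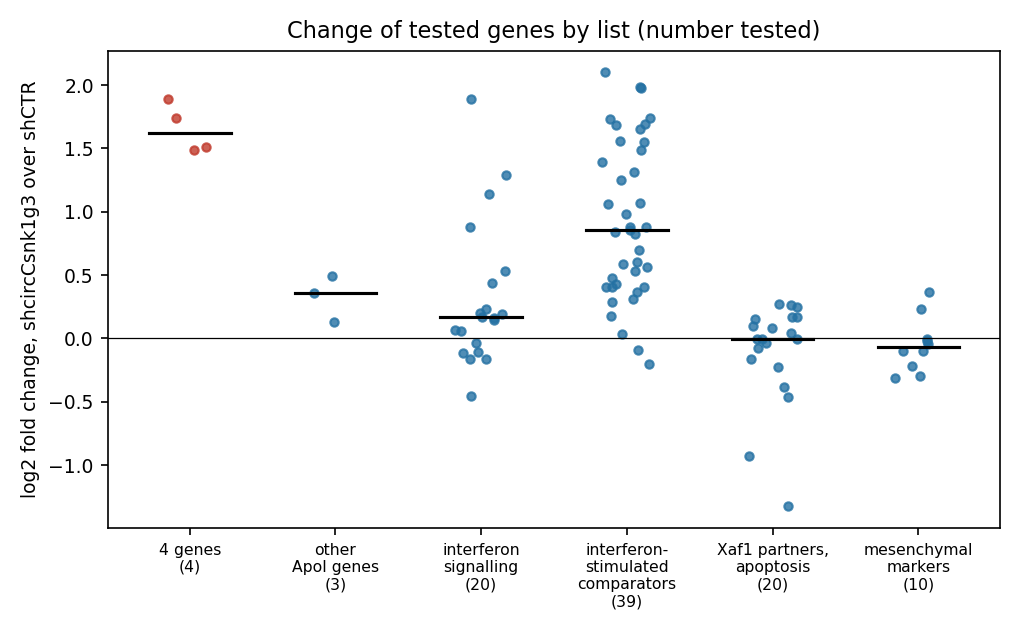
Log2 fold change of shcircCsnk1g3 over shCTR of each tested gene, by list, with the number tested in parentheses and a line at the median; points are spread sideways for visibility only. Medians are 0.85 for the 39 interferon-stimulated comparators, 0.17 for interferon signalling, -0.00 for Xaf1 partners and apoptosis genes, and -0.07 for mesenchymal markers, which changed sign to 0.07 when scaled to housekeeping genes.

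The genes next to the 4 on the chromosomes were set beside them. The 3 nearest genes with at least 10 counts on each side of a member gave 18 distinct genes outside the 4, with a median log2 fold change of -0.07, the interval above 0 for 7 and below 0 for 7, and none at least 2-fold higher. Over all genes tested these shares were 26.9%, 28.2% and 2.13%. The values ran from -1.94 for Spns2, a sphingosine-1-phosphate transporter with 9 and 43 counts beyond Xaf1, to 0.92 for 1700109K24Rik, with 44 and 24 counts. Around Rtp4, the transcriptional repressor gene Bcl6 was at 0.25, St6gal1, a sialyltransferase, at -0.26 and Rfc4, a replication factor subunit, at 0.10. Next to Xaf1, Med31, a Mediator subunit, was at -0.07 and Mybbp1a at -0.16. On chromosome 15, Apol7a lies 4.7 kb from Apol9a, and Myh9, the non-muscle myosin heavy chain gene 24.2 kb beyond Apol9b, was at -0.07 with 75397 and 85448 counts.

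**Figure D5:**
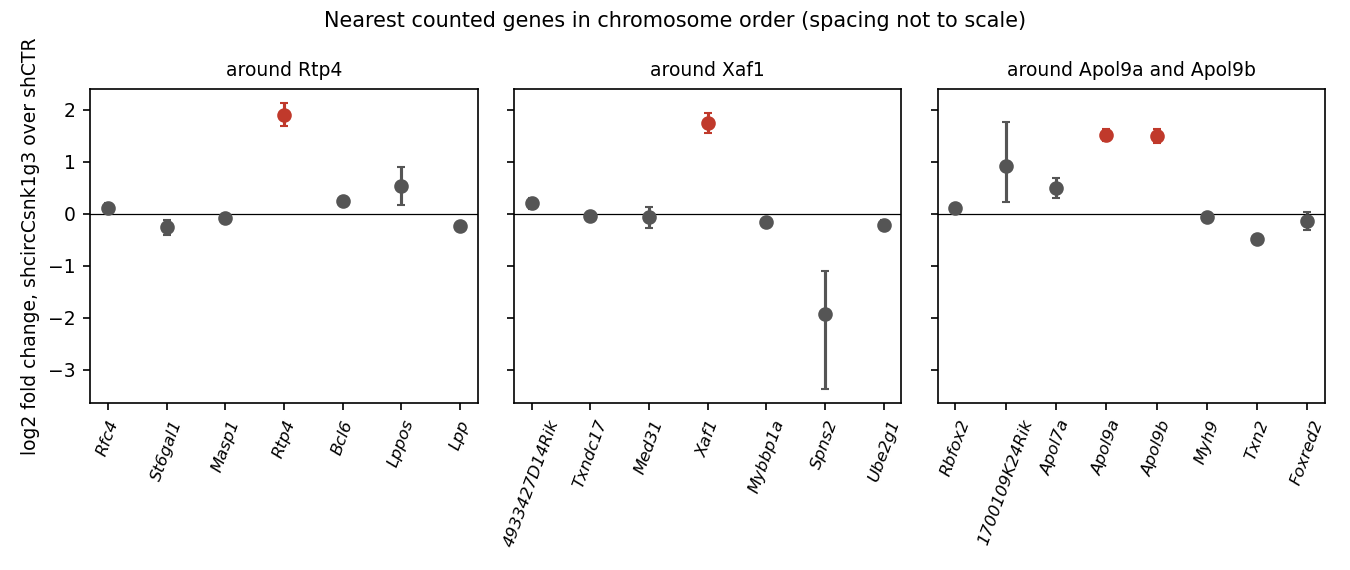
Log2 fold change of shcircCsnk1g3 over shCTR with its 95% Clopper-Pearson interval for Rtp4, Xaf1, Apol9a and Apol9b (red) and the nearest genes holding 10 counts or more in either library (grey), in chromosome order and not to scale. The 4 genes lie at 1.49 to 1.89 and the 18 neighbours between -1.94 and 0.92.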

How the data were processed

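The authors aligned reads of stranded poly(A) libraries to GRCm38 with STAR 2.6.1 and summarised them per gene with RSEM 1.2.28. The table they deposited holds expected counts, rounded to whole numbers, without normalization. A second deposited table holds a TMM-scaled signal per gene, made by the authors from these counts with 1 factor per library, for 11624 genes that include the 4. The 92 spike-in rows, at 0 in both libraries, were left out.

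TMM factors were computed with edgeR 4.0.16 (R 4.3.3) from genes reaching 10 counts in either library. A log2 fold change compares TMM-scaled CPM after adding a prior count of 2. Intervals are 95% exact Poisson for a count and Clopper-Pearson for a ratio or share. They cover counting error only, and amplified reads are not independent molecules. With 1 library per condition there was no test. All else used python 3.11.15, numpy 2.4.6, pandas 2.3.3, scipy 1.17.1, biopython 1.88 and matplotlib 3.10.9. The scaling, fold changes and ratio intervals were run on simulated Poisson counts. Those hold no variation between cultures and no reads shared by paralogs, so they check the computation only.

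The members and all gene lists were chosen with earlier results of these data known. Genes named are the 4, those of the lists (of the comparators the 3 highest and 3 lowest), those ranked within 5 places of a member at a mean of at least 10 CPM, the 3 nearest counted genes on each side, and the 3 nearest in change within 2-fold of a member's mean level. Some genes of the lists are not reported here by name. Places and transcripts are from GENCODE M21, in which 25251 of 25509 identifiers were found. The release used by the authors is not given in the sources used here.

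Alternatives were DESeq2 1.42.0 size factors, total counts without TMM factors, scaling to 15 housekeeping genes, prior counts of 0.5 and 10, no filter, minimums of 50 and 200 summed counts, the deposited TMM-scaled table, thresholds of 1.5-fold and 4-fold, and a correction for GC content and length.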

Additional observations from a re-analysis of the deposited data

How the results depend on the processing

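Over all alternatives the log2 fold change stayed between 1.86 and 2.03 for Rtp4, 1.68 and 1.87 for Xaf1, 1.49 and 1.65 for Apol9a, 1.48 and 1.63 for Apol9b, and 1.498 and 1.64 for the summed Apol9 pair. Of these 50 values 48 stayed within the gene's own interval. The exceptions came from scaling to the housekeeping genes, which gave 1.65 for Apol9a and 1.64 for the pair. That scaling moved the median of all genes tested by 0.14, so relative to all genes the values are as before. It also gave list medians of 0.13 for Xaf1 partners and apoptosis genes, 0.30 for interferon signalling and 0.068 for mesenchymal markers, the latter with the sign reversed from -0.07. The comparators' median ranged from 0.82 to 0.99.

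The numbers of genes at least 2-fold higher and lower, 275 and 330, changed with the settings. They were 354 and 261 with housekeeping scaling, 60 and 79 with at least 200 summed counts, 132 and 157 with at least 50, 105 and 163 in the deposited TMM-scaled table, 732 and 623 with no filter, and 150 and 171 with a prior count of 10. At a threshold of 1.5-fold they were 698 and 817, and at 4-fold 49 and 52. Of the genes tested, 127 had a library at or under 3 counts.

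With 1 library per condition no replicate was left out. No paired analysis was possible because the groups share no replicate and the values come from no test. Variation between cultures, between hairpins and between transductions was not measured, and reads shared by Apol9a and Apol9b limit their separate values.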
